A study of Rattus norvegicus with 6 samples.

Results

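The genes described are 32 genes of cholesterol and fatty acid synthesis, chosen by name and role with earlier results of these data known. They are 18 enzymes of the sterol branch, 6 regulators of sterol synthesis and 8 enzymes of the fatty acid branch. Of these, 31 were measured and 30 were tested in macrophages that carry CD11b and CD163 on their surface, sorted from the right hemisphere of adult male Sprague-Dawley rats. The ischemic rats (64, 65 and 66) had 1 h of occlusion of the right middle cerebral artery followed by 16 h of reperfusion, and the control rats (63, 68 and 69) were not made ischemic. Each rat gave 1 Affymetrix Rat Genome array, and the rats were the replicates. The series asked how ischemia changes gene expression in CD163+ macrophages of the brain. For these genes the question was which enzymes and regulators of lipid synthesis were higher or lower after ischemia.

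Cells make cholesterol from acetyl-CoA through mevalonate, farnesyl pyrophosphate, squalene and lanosterol, and make long fatty acids from the same precursor through malonyl-CoA. The genes of both branches are targets of the SREBP transcription factors, which are held in the endoplasmic reticulum by INSIG proteins while sterols are plentiful and are carried by SCAP to the Golgi for cleavage when sterols are scarce. Macrophages also take up lipid from dying cells and myelin, and they export or esterify the cholesterol they do not use.

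The sorted cells had high values for markers of brain macrophages. Cd163 had log2 values of 13.38 to 14.11 in ischemic rats and 12.63 to 13.86 in control rats, and Mrc1 13.62 to 14.25 in ischemic rats and 13.49 to 14.66 in control rats. None of the 13 macrophage markers measured was within background, which was set at a log2 value of 7.43 from genes of other tissues. Of these 13, 11 had fitted values below 0 after ischemia (median log2 fold change -0.66), 1 of them (Colec12) fell by 1.95 on the log2 scale and 0 rose, and their linear values summed to a log2 of 16.68 to 17.36 in ischemic rats and 16.83 to 17.82 in control rats. Control rat 63 stood apart: no probe set exceeded 13.85 on its array, whereas the highest values of the other 5 rats were 14.88 to 14.96, and its markers of oligodendrocytes, astrocytes and endothelial cells summed higher than in any other rat. The markers of oligodendrocytes, cells that make much cholesterol for myelin, were lower after ischemia: of 8 tested, 0 rose and 3 fell, their linear values summed to a log2 of 12.05 to 12.76 in ischemic rats and 13.29 to 14.46 in control rats, and 3 of the 11 measured were within background in every rat. Astrocyte markers went both ways: of 8 tested, 1 rose (Gfap, log2 fold change 2.07) and 1 fell (Fgfr3, -0.66). They summed to a log2 of 11.98 to 12.29 in ischemic rats and 11.26 to 12.84 in control rats. Of 6 microglia markers tested, 0 rose and 1 fell (P2ry12), and 2 were higher and 2 lower without overlap. Their linear values summed to a log2 of 13.48 to 14.30 in ischemic rats and 13.89 to 14.05 in control rats. Markers of monocytes were higher after ischemia (7 of 8 rose, of which Vcan entered the test only through its ischemic rats), with summed log2 values of 15.01 to 15.99 in ischemic rats and 13.03 to 13.80 in control rats, and granulocyte markers summed to 10.84 to 11.998 in ischemic rats and 9.93 to 10.30 in control rats. Of the monocyte list, the paper names Vcan, Fn1 and Cd44 as increased in CD163+ macrophages after ischemia. By flow cytometry it found a CD163+ population of similar size to controls at 16 h. It also found some granulocytes among the CD163+ cells sorted from ischemic brain. The 3 granulocyte markers that rose, S100a8, Mmp9 and Lcn2, were below the filter on low values in all controls and were tested only through the ischemic rats in which they were high. S100a9, Csf3r and Cxcr2 were tested and not called, with log2 fold changes of 2.19, 0.93 and -0.50, and the groups of Cxcr2 overlapped. Ccr2, the monocyte marker that was not called, differed by 0.43 with overlapping groups. The 3' probe set of actin exceeded its 5' probe set by 0.17 to 0.24 on the log2 scale in ischemic rats and by 0.06 to 0.07 in control rats, and that of GAPDH by 0.75 to 0.80 in ischemic rats and 0.52 to 0.65 in control rats. The part of these cells, and of this difference between the RNA samples, in the values of the lipid genes was not tested. In such bulk samples a change in the share of a cell type and a change of RNA per cell cannot be told apart.

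Across the 30 genes tested, 3 rose and 1 fell after ischemia at an adjusted p under 0.01 by limma, and 26 passed in neither direction. Among all 9928 genes tested, 16.8% rose and 5.99% fell by the same rule, so the counts for the lipid genes were no greater than these shares. The genes that rose were Hsd17b7, of the late sterol pathway, Scap, the escort of the SREBPs, and Acaca, the enzyme that makes malonyl-CoA. Of these, Hsd17b7 was below the filter on low values in all controls and entered the test only through its ischemic rats. The gene that fell was Fdft1, squalene synthase. None of the 30 changed by more than 2 on the log2 scale, the size that the paper states for its gene list beside the adjusted p. All 3 ischemic rats were above all 3 controls for 12 genes and below them for 5, and the groups overlapped for 13. Of all genes tested, 35.7% were higher without overlap and 19.9% were lower, shares close to those of the 30 genes. The median log2 fold change was 0.18 over the 17 sterol enzymes tested, -0.04 over the 6 regulators and 0.40 over the 7 fatty acid enzymes, beside 0.10 over all genes tested. With arrays centred on ribosomal protein genes, the median of all genes was -0.46, and those of the branches were -0.37, -0.59 and -0.15 in the same order, so the sign of the sterol and fatty acid medians turned with the scaling. Relative to the median of all genes, sterol enzymes stood 0.07 above as deposited and 0.08 above with that centring, regulators 0.14 and 0.13 below, and fatty acid enzymes 0.30 and 0.31 above. With that centring Hsd17b7, Scap and Acaca no longer passed the test, and 16 genes that had positive fitted values but were uncalled as deposited, Mvd, Fdps, Lss, Nsdhl, Ebp, Insig2, Srebf1, Acly and Elovl5 among them, had fitted values below 0. Without control rat 63, which stood apart, Acaca still rose (adjusted p = 0.0035 by limma), Hsd17b7, Scap and Fdft1 kept their direction at adjusted p of 0.0135, 0.0179 and 0.0194, and the medians of the 3 branches were 0.16, -0.05 and 0.30.

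**Figure D1:**
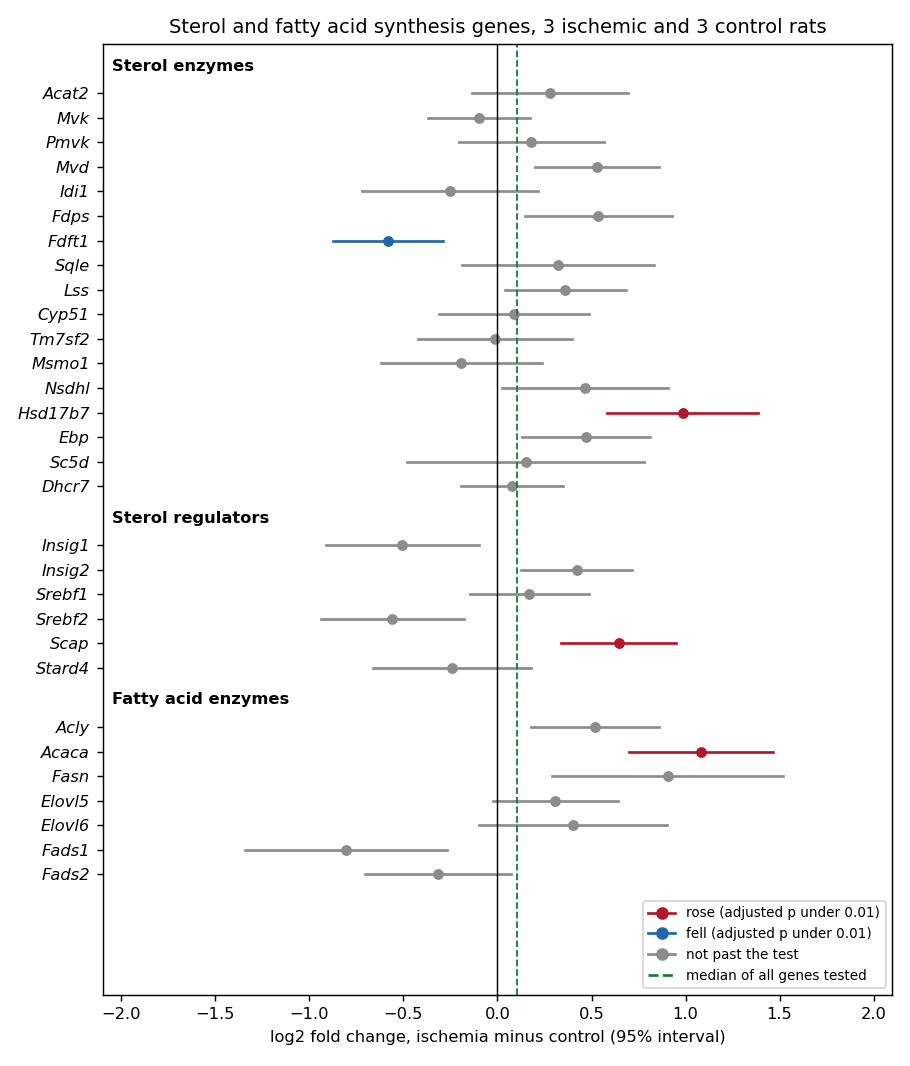
Log2 fold change (ischemia minus control) of the 30 genes tested, with 95% intervals from limma, in pathway order; the dashed line is the median of all genes tested (0.10). Hsd17b7, Scap and Acaca passed the test upwards and Fdft1 downwards, and the sterol enzymes lay on both sides of 0. Hsd17b7 entered the test only through its ischemic rats.

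To show the sequence in front of the genes that changed and of the INSIG pair, whose values differed in opposite directions as deposited, promoter windows were taken from RefSeq on the rat assembly GRCr8, each running from 250 bases before to 50 bases after the gene's annotated start. Whether transcription begins at that start in these cells, for Insig2 above all, was not tested, so a window may not be the promoter in use. Of the 32 genes, 25 had an entry, with 26 windows; Pmvk, Fdft1, Sqle, Stard4, Acaca, Fasn and Elovl6 were not in the table. Each is printed 5' to 3' in the direction of the gene, and capitals mark CCAAT and GGGCGG (the box bound by NF-Y and the GC box bound by Sp1, both known as partners of SREBPs), on either strand, so that the reverse strand reads ATTGG and CCGCCC. The windows lie at chr13:84722705-84723004 (Hsd17b7, minus strand), chr8:119184188-119184487 (Scap, plus strand), chr4:8057720-8058019 (Insig1, minus strand) and chr13:35040049-35040348 (Insig2, minus strand).
Hsd17b7: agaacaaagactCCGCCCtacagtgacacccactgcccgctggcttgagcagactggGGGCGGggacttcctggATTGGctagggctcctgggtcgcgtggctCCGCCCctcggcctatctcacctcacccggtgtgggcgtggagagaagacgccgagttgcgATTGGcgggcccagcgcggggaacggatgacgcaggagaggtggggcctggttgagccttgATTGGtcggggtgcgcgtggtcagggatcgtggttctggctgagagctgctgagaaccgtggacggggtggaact
Scap: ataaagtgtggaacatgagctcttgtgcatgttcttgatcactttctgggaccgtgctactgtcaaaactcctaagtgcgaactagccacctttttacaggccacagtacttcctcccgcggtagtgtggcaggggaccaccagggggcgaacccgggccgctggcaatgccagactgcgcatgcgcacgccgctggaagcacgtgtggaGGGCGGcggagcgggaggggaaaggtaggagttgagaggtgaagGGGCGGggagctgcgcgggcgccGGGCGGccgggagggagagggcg
Insig1: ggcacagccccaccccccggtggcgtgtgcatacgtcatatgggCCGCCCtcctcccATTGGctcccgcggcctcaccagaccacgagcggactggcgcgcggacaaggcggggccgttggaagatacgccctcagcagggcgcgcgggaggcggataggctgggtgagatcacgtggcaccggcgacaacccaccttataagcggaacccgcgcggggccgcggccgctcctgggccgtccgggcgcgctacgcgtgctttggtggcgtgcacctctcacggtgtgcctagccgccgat
Insig2: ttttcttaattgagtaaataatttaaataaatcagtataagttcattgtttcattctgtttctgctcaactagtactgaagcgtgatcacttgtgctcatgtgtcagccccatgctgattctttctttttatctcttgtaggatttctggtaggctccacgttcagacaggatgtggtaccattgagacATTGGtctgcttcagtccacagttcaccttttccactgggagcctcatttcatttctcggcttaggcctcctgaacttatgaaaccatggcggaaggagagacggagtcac
The Hsd17b7 window held 3 CCAAT and 3 GGGCGG matches, the Scap window 0 and 3, the Insig1 window 1 and 1, and the Insig2 window 1 and 0, and no base was shared by a match to each. Over the 26 windows of the lipid genes, 20 (76.9%) held CCAAT and 21 (80.8%) held GGGCGG, beside 37.5% and 33.1% of all 33469 windows. The spelling TCACNCCAC of the sterol regulatory element was found in 0 of the 26 and in 1.12% of all windows, which says only that these letters were not in these windows. These matches are descriptions, and no binding was measured.

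The early sterol enzymes, which build isoprenoid units, showed small differences and none passed the test. Mvd, which makes isopentenyl pyrophosphate, had log2 values of 8.44, 8.83 and 8.59 in ischemic rats and 8.17, 8.12 and 7.99 in control rats. All ischemic rats were above all controls, and the log2 fold change of 0.53 (SE 0.14) missed the threshold at a limma adjusted p of 0.0194. Fdps, which makes farnesyl pyrophosphate, had 11.12, 11.69 and 11.18 in ischemic rats and 10.80, 10.81 and 10.78 in control rats. The control rats lay close together, rat 65 was the highest, and the log2 fold change was 0.54 (SE 0.17, adjusted p = 0.0361 by limma). Acat2, the cytosolic thiolase at the entry of the pathway, Pmvk, which phosphorylates mevalonate 5-phosphate, and Idi1, which isomerises isopentenyl pyrophosphate, had log2 fold changes of 0.28, 0.18 and -0.25 with overlapping groups. Mvk, mevalonate kinase, was lower in every ischemic rat by a log2 fold change of only -0.10, and 1 of its 3 probe sets differed the other way. Hmgcs1, the synthase that precedes mevalonate, had no probe set that names it alone and was not analysed.

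Fdft1 takes farnesyl pyrophosphate to squalene, the first step that serves sterols only. It had log2 values of 10.73, 10.64 and 10.61 in ischemic rats and 11.27, 11.11 and 11.37 in control rats. Every ischemic rat was below every control, and Fdft1 fell by 0.58 on the log2 scale (SE 0.13, adjusted p = 0.0083 by limma), to 0.667 of the control level. Its other probe set had 10.46, 10.18 and 10.45 in ischemic rats and 10.75, 11.14 and 10.83 in control rats, lower in the same way by a log2 fold change of -0.54, but with an adjusted p of 0.0259 over all probe sets by limma. Without any 1 of the 6 rats the adjusted p of Fdft1 lay between 0.0118 and 0.0407, so its call rested on having all of them.

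Neither of the enzymes between squalene and lanosterol passed the test. Sqle, the epoxidase of squalene, had 10.13, 10.81 and 9.96 in ischemic rats and 10.13, 9.91 and 9.89 in control rats, with rat 65 the highest, rat 64 level with the highest control and rat 66 among the controls. Lss, which closes the rings to give lanosterol, had 8.96, 8.88 and 8.58 in ischemic rats and 8.48, 8.44 and 8.43 in control rats. The groups of Lss did not overlap, and its log2 fold change was 0.36 (adjusted p = 0.0693 by limma), whereas its other probe set differed by 0.00.

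Of the enzymes that turn lanosterol into cholesterol, 1 of 8 passed the test, upwards, beside 16.8% of all genes tested that rose. Hsd17b7, the sterol ketone reductase, had 7.62, 7.896 and 7.34 in ischemic rats and 6.64, 6.81 and 6.45 in control rats, and rose by a fitted log2 fold change of 0.98 (SE 0.17, adjusted p = 0.0037 by limma). All 3 controls were within background and below the filter on low values (a log2 value of 7.16), so the gene entered the test only through its ischemic rats. Of these, 2 of 3 were above background and rat 66 was within it, so no least fold is given. Its other probe set had 7.23, 7.61 and 7.14 in ischemic rats and 6.68, 6.77 and 6.33 in control rats, and was outside the test. The call of Hsd17b7 was lost without control rat 63 (adjusted p = 0.0135), control rat 69 (0.0145) or ischemic rat 65 (0.0167). Nsdhl, which works beside it in removing methyl groups, had 9.22, 9.84 and 9.29 in ischemic rats and 8.96, 9.17 and 8.82 in control rats. The groups of Nsdhl did not overlap, but its log2 fold change of 0.46 had an adjusted p of 0.0845 by limma. Ebp, the sterol isomerase, was also higher in all ischemic rats (9.94, 10.11 and 10.27, against 9.54, 9.83 and 9.53 in control rats; adjusted p = 0.0353 by limma). The others had overlapping groups: Cyp51, the lanosterol demethylase (log2 fold change 0.09), Tm7sf2, a sterol reductase (-0.01), Msmo1, the methyl oxidase (-0.19), Sc5d, the desaturase (0.15) and Dhcr7, the reductase that gives cholesterol itself (0.08). For Dhcr7 the 95% interval ran from -0.19 to 0.35, and for Cyp51 from -0.31 to 0.49.

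Among the ischemic rats the sterol enzymes stood highest in rat 65, a pattern noticed after the values were seen. Rat 65 had the highest value of the 3 ischemic rats for 14 of the 17 sterol enzymes (82.4%), and for 25.2% of all genes tested. The median deviation of the sterol enzymes from their control means was 0.43 in rat 65, with 0.15 for rat 64 and 0.03 for rat 66. Without rat 65 the median log2 fold change of the sterol enzymes was 0.07, which was 0.04 below the median of all genes in that fit. Sc5d showed the widest spread of these enzymes, with 8.603, 9.82 and 9.12 in the ischemic rats 64, 65 and 66, around control values of 9.04, 9.08 and 8.97. Because these genes were measured in the same cells of the same rat, the 14 genes are not 14 separate observations.

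**Figure D2:**
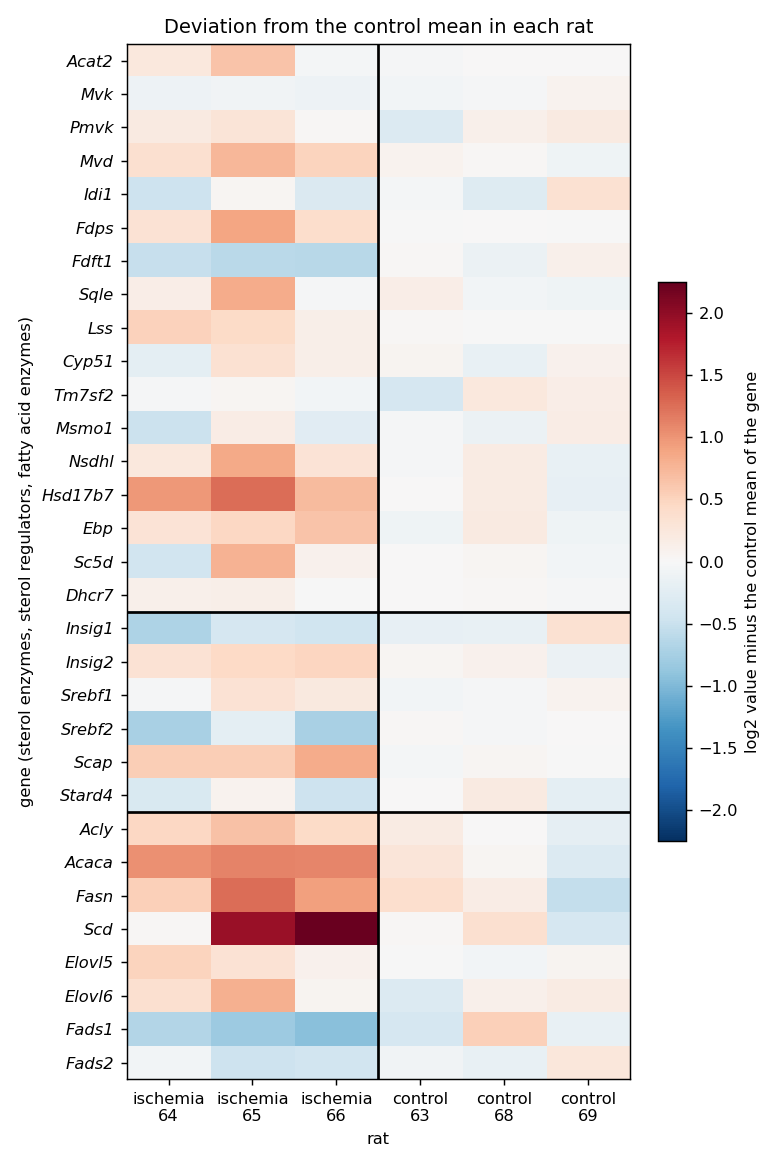
Log2 value of each of the 31 genes measured in each rat, minus the mean of the 3 control rats for that gene; ischemic rats are on the left, black lines part the 3 branches, and the control rats are centred on their own mean. Rat 65 is the highest of the ischemic rats in most sterol enzymes, and Fdft1, Insig1, Srebf2 and Fads1 are low in all 3 ischemic rats.

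The regulators did not move in one direction: 1 of 6 rose, 0 fell, 2 were higher and 2 lower without overlap. Of all genes tested, 16.8% rose, 5.99% fell, 35.7% were higher and 19.9% lower without overlap, so these few counts are descriptions. Scap carries the SREBPs to the Golgi. It had 10.52, 10.52 and 10.80 in ischemic rats and 9.92, 10.02 and 9.97 in control rats. The lowest ischemic rat was above the highest control, and Scap rose by 0.64 on the log2 scale (SE 0.13, adjusted p = 0.0066 by limma), or 1.56-fold. Its other probe set was higher by 0.56 (adjusted p = 0.0103 over all probe sets by limma). The call was lost without control rat 63 (adjusted p = 0.0179), 68 (0.0174) or 69 (0.0222), without ischemic rat 65 (0.023) or 66 (0.0292), and with quantile normalisation repeated (0.0132), and the fitted log2 fold change was 0.09 with arrays centred on ribosomal protein genes.

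Srebf2 encodes the SREBP that chiefly drives sterol synthesis, and Srebf1 the one that chiefly drives fatty acid synthesis. Srebf2 had 9.89, 10.39 and 9.88 in ischemic rats and 10.64, 10.57 and 10.61 in control rats. The controls lay close together and above every ischemic rat, but the log2 fold change of -0.56 (SE 0.16) did not pass the test (adjusted p = 0.0274 by limma). The other Srebf2 probe set differed by -0.65 (adjusted p = 0.0164). Srebf1 had 8.79, 9.14 and 9.04 in ischemic rats and 8.76, 8.80 and 8.90 in control rats, with overlapping groups and a log2 fold change of 0.17, and its other probe set was higher by 0.36 without overlap (adjusted p = 0.0552). The fitted values of Srebf2 and Srebf1 thus had opposite signs as deposited, but that of Srebf1 was -0.38 with arrays centred on ribosomal protein genes, and neither gene passed the test.

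The INSIG genes differed in opposite directions as deposited, although Insig2 had a fitted value of -0.13 with arrays centred on ribosomal protein genes. Insig1, itself a target of SREBPs, had 11.32, 11.64 and 11.56 in ischemic rats and 11.84, 11.85 and 12.35 in control rats, and all ischemic rats were below all controls (log2 fold change -0.51, SE 0.18, adjusted p = 0.0498 by limma). Insig2 had 10.03, 10.15 and 10.19 in ischemic rats and 9.74, 9.80 and 9.56 in control rats, and all ischemic rats were above all controls (0.42, SE 0.13, adjusted p = 0.0307). Neither passed the threshold of 0.01, and the second Insig2 probe set had overlapping groups with a difference of 0.12. Stard4, a carrier of sterol between membranes and a target of SREBPs, had overlapping groups in each of its 3 probe sets, with a log2 fold change of -0.24 in the one of highest mean.

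**Figure D3:**
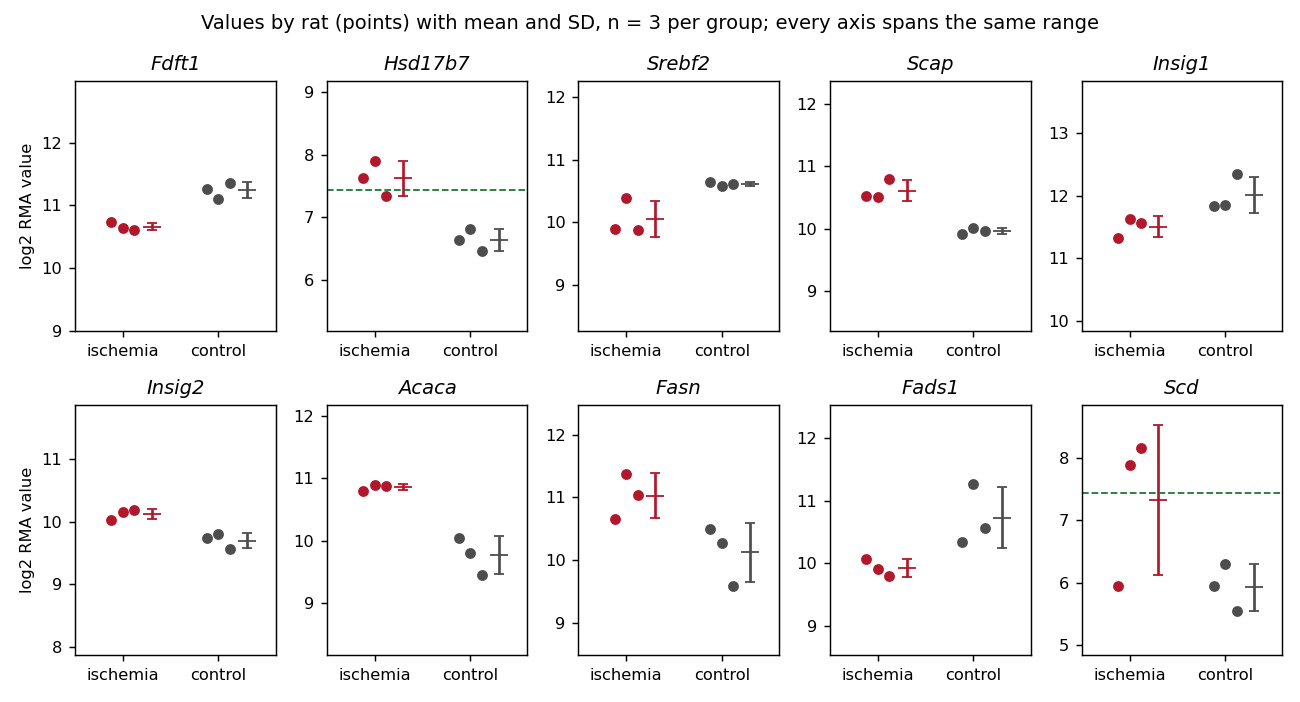
Log2 value in each rat (points, ischemia left of control) with the mean and SD (n = 3 rats per group) for 10 genes; dashed lines show background (7.43), and every axis spans the same range. The 10 genes were picked for display. The groups do not overlap for 9 of the 10, and for Scd 1 ischemic rat lies among the controls. Of the 30 genes tested, 12 were higher and 5 lower without overlap, beside 35.7% and 19.9% of all genes tested.

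In the fatty acid branch, 1 of 7 genes tested rose and 0 fell, beside 16.8% and 5.99% of all genes tested. In all ischemic rats 4 were higher and 1 lower than in all controls, beside 35.7% and 19.9% of all genes tested. Acly splits citrate to give acetyl-CoA in the cytosol. It had 11.01, 11.22 and 10.98 in ischemic rats and 10.75, 10.57 and 10.35 in control rats, without overlap, and a log2 fold change of 0.52 (SE 0.15) that missed the threshold (adjusted p = 0.0247 by limma). Acaca, acetyl-CoA carboxylase, had 10.80, 10.89 and 10.87 in ischemic rats and 10.05, 9.81 and 9.46 in control rats. The ischemic rats lay close together and above every control, and Acaca rose by 1.08 on the log2 scale (SE 0.17, adjusted p = 0.0021 by limma), or 2.12-fold. Its other probe set rose by 1.07 (adjusted p = 0.002 over all probe sets by limma). Without ischemic rat 65 the adjusted p of Acaca was 0.0112, and without each of the other rats it stayed under the threshold. With arrays centred on ribosomal protein genes its log2 fold change was 0.53 (adjusted p = 0.107).

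Fasn, which builds palmitate from malonyl-CoA, had 10.66, 11.38 and 11.04 in ischemic rats and 10.49, 10.28 and 9.59 in control rats. The groups did not overlap, but the lowest ischemic rat and the highest control were close, and the log2 fold change of 0.90 (SE 0.27) had an adjusted p of 0.0278 by limma. The other Fasn probe set had 9.25, 9.79 and 9.61 in ischemic rats and 8.77, 8.66 and 8.12 in control rats, and rose by 1.03 (SE 0.21, adjusted p = 0.0067 over all probe sets by limma). The call of Fasn therefore depended on the probe set taken to represent it.

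Of the enzymes that lengthen and desaturate fatty acids, none passed the test. Elovl5, which lengthens polyunsaturated chains, had 12.62, 12.45 and 12.21 in ischemic rats and 12.11, 12.06 and 12.19 in control rats, without overlap and with a log2 fold change of 0.31 (adjusted p = 0.121 by limma). Elovl6, which lengthens palmitate, differed by 0.40 with overlapping groups. Fads1, the desaturase that gives arachidonic acid, had 10.07, 9.91 and 9.80 in ischemic rats and 10.35, 11.27 and 10.57 in control rats. Every ischemic rat was below every control, and the log2 fold change was -0.81 (SE 0.23, adjusted p = 0.0257 by limma). Fads2, the desaturase that acts before it, differed by -0.32 with overlapping groups. Scd, which puts the double bond into stearate, was outside the test: it had 5.95, 7.87 and 8.15 in ischemic rats and 5.95, 6.29 and 5.54 in control rats. Ischemic rats 65 and 66 were above background and the other 4 rats were not, so no fold is given. Scd2, a second stearoyl-CoA desaturase that is not among the 32 genes and was looked at after its values were seen, had 11.07, 11.82 and 11.72 in ischemic rats and 11.09, 10.38 and 10.21 in control rats. Ischemic rat 64 and control rat 63 overlapped, and the log2 fold change of Scd2 was 0.97 (SE 0.27).

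Of the 32 genes, 17 had more than 1 probe set, and for 15 of them all probe sets differed in the same direction. The exceptions were Mvk and Sc5d, whose groups differed little. Of the 19 other probe sets tested, 2 rose (Acaca and Fasn) and 0 fell.

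Genes next to these branches were read from lists of 70 genes, of which 59 were tested, 15 rose and 2 fell. Of all genes tested, 16.8% rose and 5.99% fell. The lists were written with earlier results of these data known, so their counts are descriptions. Nr1h3 and Me1, counted among those that rose, were below the filter on low values in all controls and entered the test only through the ischemic rats in which they were high. In the machinery that processes and degrades SREBP complexes, 3 of 15 rose and 0 fell, beside 16.8% and 5.99% of all genes tested. The 3 were Nploc4, Vcp and Ufd1, parts of a complex that draws ubiquitinated proteins from the endoplasmic reticulum. They rose by 0.88, 0.71 and 0.57 on the log2 scale. Vcp had 12.43, 12.42 and 12.43 in ischemic rats and 11.65, 11.69 and 11.80 in control rats. Sar1a and Pgrmc1, which did not pass the test, differed by 0.33 and 0.17.

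In the use and export of sterol, 3 of 16 rose and 0 fell, beside 16.8% and 5.99% of all genes tested. Nr1h3 encodes LXR alpha, a receptor for oxysterols, and had 8.77, 9.57 and 10.04 in ischemic rats and 6.76, 6.94 and 6.76 in control rats. The controls were within background and all ischemic rats above it, so Nr1h3 entered the test only through its ischemic rats. The fitted log2 fold change was 2.64, or at least 4.08-fold with the controls put at background. Ch25h, which makes 25-hydroxycholesterol, had 14.22, 13.87 and 13.97 in ischemic rats and 11.72, 12.44 and 12.82 in control rats, and rose by 1.69 (adjusted p = 0.0022 by limma). Lipa, the lysosomal lipase that frees cholesterol from its esters, rose by 0.67. Apoe and Npc2, carriers of sterol, differed by 0.09 and 0.12 with overlapping groups. Abca1 and Mylip also had overlapping groups, with log2 fold changes of 0.21 and 0.08. Abcg1, Pltp and Cyp27a1 were lower without overlap, with log2 fold changes of -0.38, -0.97 and -1.06, and were not called. Of the 16 genes, 6 were higher and 3 lower without overlap, beside 35.7% and 19.9% of all genes tested.

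Among genes that attach or use isoprenoids, 2 of 10 rose and 0 fell, beside 16.8% and 5.99% of all genes tested. Nus1, a subunit of the enzyme that makes dolichol, had 11.40, 11.67 and 11.79 in ischemic rats and 10.35, 10.53 and 10.59 in control rats, and rose by 1.13 on the log2 scale (adjusted p = 0.0012 by limma). Rabggtb, a subunit of the transferase that prenylates Rab proteins, rose by 0.98. Fnta and Icmt, of farnesylation and of methylation after it, were higher without overlap by 0.44 and 0.36 and did not pass the test.

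Among other genes of fatty acid synthesis, activation and storage, 7 of 18 rose and 2 fell, beside 16.8% and 5.99% of all genes tested. Me1, malic enzyme, which supplies NADPH, had 8.17, 9.99 and 10.04 in ischemic rats and 7.12, 6.50 and 5.81 in control rats. The controls were within background, and Me1 entered the test only through its ischemic rats. Its fitted log2 fold change was 2.92, or at least 3.91-fold with the controls put at background. Dgat2, which closes triglyceride synthesis, had 9.91, 10.94 and 10.98 in ischemic rats and 8.48, 8.46 and 8.16 in control rats. It rose by 2.24 (SE 0.28, adjusted p = 0.001 by limma). Acsl4, which activates arachidonic acid, rose by 1.49, and Mlxipl, which encodes the carbohydrate response factor ChREBP, rose by 1.30. Hsd17b12, Elovl1 and Hacd3, of the elongation cycle, rose by 1.07, 0.89 and 0.81. Lpin1, a phosphatidate phosphatase, fell by 1.31, and Acsl3, an acyl-CoA synthetase of lipid droplets, fell by 0.87. The lists were written with earlier results of these data known, and their counts stand beside the 16.8% and 5.99% of all genes as descriptions.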

How the data were processed

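RNA of CD11b+CD163+ cells from 3 ischemic and 3 control rats was hybridised to Affymetrix Rat Genome arrays, 1 per rat. The authors normalised the arrays by RMA (background correction, quantile normalisation and summary per probe set), and the deposited log2 values were taken without further scaling. The submitters' processing notes name R 3.3.1 and limma 3.18. Of 31099 probe sets, 20826 named 1 gene, 436 named several and were not used, and 57 were controls. The probe set with the highest mean stood for its gene, and genes were tested if 3 or more arrays lay above the 40th percentile of the values. The difference, ischemia minus control, was fitted with limma 3.58.1 (lmFit, eBayes; R 4.3.3), two-sided, with Benjamini-Hochberg adjustment over 9928 genes and a threshold of 0.01, and other probe sets in a fit over 14083 probe sets. Genes at an adjusted p above that are given by their values. An exact permutation test of 3 against 3 rats cannot go below p = 0.1. There is no read depth for an array, and precision is limited by the number of rats.

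The genes and lists were chosen with earlier results of these data known. All 32 are accounted for, those past the test with their value in each rat. From each other pathway list up to 4 called genes of largest change and up to 2 uncalled genes of highest mean are named, and further genes, such as the rest of those called in the last list, were added after their values were seen. The rule for promoters, to print those with a TCACNCCAC match, gave none, and the 4 printed were chosen afterwards. Background was the 90th percentile of 31 genes of other tissues. Alternatives covered the filter, probe set, scaling, moderation, array weights, thresholds and leaving out each rat. The script was tested on simulated data.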

Additional observations from a re-analysis of the deposited data

How the results depend on the processing

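None of the 4 genes past the test turned its sign under any alternative run. Leaving out each rat in turn gave 0 to 1 risen sterol enzymes (0 without ischemic rat 65, control rat 63 or control rat 69), 0 to 0 fallen sterol enzymes, 0 to 1 risen regulators and 0 to 1 risen fatty acid enzymes (0 without ischemic rat 65), and 681 to 1564 risen and 166 to 816 fallen genes in all, against 1664 and 595 with all rats. The lowest of both counts came without ischemic rat 65. Without 1 rat the medians ran from 0.07 to 0.28 (sterol enzymes), -0.15 to 0.04 (regulators) and 0.30 to 0.56 (fatty acid enzymes).

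With arrays centred on ribosomal protein genes, 379 genes rose and 2697 fell, so 12.3% of calls rose beside 73.7% as deposited (59.96% with quantile normalisation repeated, which gave 929 fallen genes and 0 risen regulators). Those genes had array medians of 14.02 to 14.09 in ischemic rats and 13.16 to 13.70 in control rats, lowest in control rat 63. That centring turned the sign of 16 of the 30 fitted values, none of them past the test in either fit, left 0 risen genes in each branch and gave 2 fallen regulators (Insig1 and Srebf2) and 2 fallen fatty acid enzymes (Fads1 and Fads2), with medians of -0.37, -0.59 and -0.15 for sterol enzymes, regulators and fatty acid enzymes.

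Array weights gave 4 risen sterol enzymes (with Ebp, Fdps and Mvd), 2 risen regulators (with Insig2), 3 risen fatty acid enzymes (with Acly and Fasn), 1 fallen fatty acid enzyme (Fads1), 1309 fallen genes in all, and medians of 0.40 for sterol enzymes and 0.13 for regulators. A threshold of 0.05 called the same genes, and Insig1 and Srebf2 as 2 fallen regulators, with 2722 risen and 1377 fallen genes in all. Asking also for a log2 fold change beyond 2 left 0 of these genes, and 162 risen and 58 fallen in all. The paper reports far more genes in each direction under that stated rule, and the reason for the difference was not tested. Without moderation 0 genes were called in any group, where 4478 genes, 11 of them among the 30, had an unadjusted p under 0.05 and the lowest adjusted p was 0.0101. A filter at the 60th percentile tested 13 sterol enzymes, of which 0 rose, since Hsd17b7 was removed. A filter on variability kept 6 sterol and 4 fatty acid enzymes, with medians of 0.50 and 0.71. Without a filter Scd had an adjusted p of 0.106. The cause of these changes was not tested, other than where fewer genes or rats were used.

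No paired analysis was possible because the control and ischemic rats carry different numbers and share none. A difference near the spread of 3 rats, or a gene close to background such as Hsd17b7 or Scd, could not be settled with these arrays.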
